A study of Bos taurus with 8 samples.

Results

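The mismatch repair genes MSH3, MSH6, MLH3, PMS1 and PMS2 were examined in bovine 2-cell embryos, through every array probe whose platform annotation carried one of these symbols. The search found 7 probes of the array's 43794, for 4 of the 15212 genes with a symbol. PMS1 had 4 probes, MSH6, MLH3 and PMS2 had 1 each, and 0 probes carried the symbol MSH3, so MSH3 was not analysed here. Of the 7 probes, 5 passed the filter on low signal described below and were tested.

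Mismatch repair removes bases that DNA polymerase pairs wrongly, and small loops left when it slips. A heterodimer of MutS homologues finds the fault, with MSH6 as the partner for single mismatches and short loops and MSH3 as the partner for longer loops. A heterodimer of MutL homologues then acts on it: PMS2 carries the endonuclease that nicks the new strand, MLH3 acts mainly at meiotic crossovers, and the role of PMS1 is less clear. The cleaving embryo copies its genome rapidly while it still relies largely on RNA and protein stored by the oocyte.

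The embryos were produced in vitro from slaughterhouse Holstein oocytes fertilized with frozen semen mixed from several bulls. The fast group of the series' design text reached the 2-cell stage and was collected 29.5 hours after fertilization (hpf), and the slow group was collected at 46 hpf. Each of 8 two-colour EmbryoGENE arrays compared amplified RNA of both groups, with 29.5 hpf embryos labelled with Cy5 on 4 arrays and with Cy3 on the other 4. The labels number the arrays as 4 replicates, each measured in both dye orientations. Cleavage speed and collection time differ together between the groups and cannot be told apart. The RNA came from whole embryos and was amplified, so fewer cells of a type and less RNA per cell cannot be told apart either. The sources used here do not say how many embryos went into a sample.

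All ratios are log2 of 29.5 hpf over 46 hpf after normalization within each array, so that a positive value means more signal at 29.5 hpf. Signals are the scanner's mean spot brightness, before any correction, in arbitrary units. A signal counted as above background when it exceeded a floor set 2 SD above the average of the channel's 153 negative controls, and a probe was tested when either group cleared that floor on at least 4 arrays. The median probe signal ranged over the arrays between 152 and 344 units in Cy5 and between 129 and 196 units in Cy3. All 13 measured oocyte and early embryo markers were above background on all 8 arrays at both times, with 0 of them past the test. Of 15 cumulus and granulosa cell markers 7 were above background throughout, and 1, the protease inhibitor gene SERPINE2, was lower at 29.5 hpf (log2 ratio -1.28, limma adjusted p = 0.0227). Its limma adjusted p was 0.0640 with the replicate numbers 1 and 2 exchanged, as described below. The summed cumulus and granulosa signal overlapped between the groups, at 30854 to 42529 units for 29.5 hpf and 32440 to 36825 units for 46 hpf. STAR, the brightest of these markers, had medians of 25146 units for 29.5 hpf and 14766 units for 46 hpf. Its log2 ratio was 0.67 (limma adjusted p = 0.112). SERPINE2 ran the other way, at medians of 3355 and 9200 units, so the overlap of the sums does not show equal cumulus RNA. Of 10 sperm markers 7 were at background, the protamine gene PRM1 and the transition protein genes TNP1 and TNP2 among them. The others were SMCP and SPATA18, above background on all 8 arrays at both times, and a second protamine gene, PRM2. PRM2 was above background on 4 arrays at 29.5 hpf and on 7 at 46 hpf. The part of cumulus cell RNA in the results below was not tested.

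MSH6 was the 1 mismatch repair gene that passed the test, with about 2 times the signal at 29.5 hpf. Its probe, EMBV3_12917, gave 1153, 1169, 1645 and 1126 units for 29.5 hpf on the arrays numbered 1 to 4 with 29.5 hpf in Cy5, against 700.1, 910.3, 635.1 and 508 units for 46 hpf on the same arrays. With the dyes exchanged it gave 1453, 1367, 1649 and 1256 units for 29.5 hpf, against 944, 641, 764 and 531 units for 46 hpf. The groups did not overlap: the lowest 29.5 hpf signal, 1126 units, lay above the highest 46 hpf signal, 944 units. Such a gap in this direction was seen in 185 of the 32989 tested probes (0.561%).

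**Figure D1:**
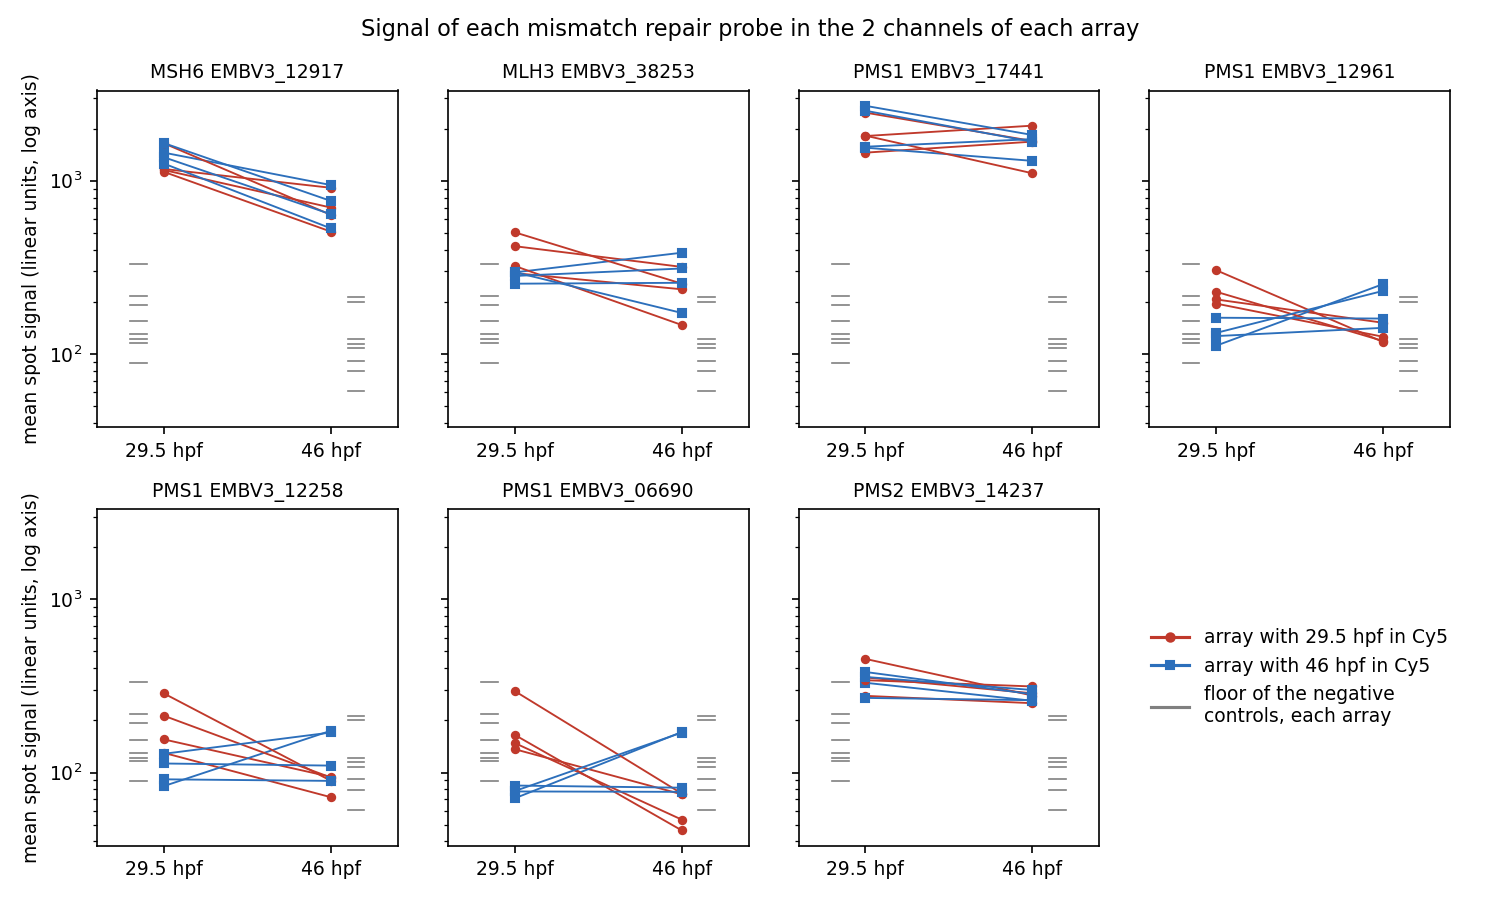
Scanner signal (units, log axis) of the mismatch repair probes in each channel of the 8 arrays, 29.5 hpf left of 46 hpf, with a line joining the channels of 1 array, circles for arrays with 29.5 hpf in Cy5, squares for those with 46 hpf in Cy5, and grey ticks for the background floor of each array. For MSH6 every 29.5 hpf signal, the lowest at 1126, sits above every 46 hpf signal, the highest at 944, whereas the signals of the other probes overlap between the groups.

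After normalization the MSH6 log2 ratio was 0.70, 0.58, 1.21 and 1.32 on the arrays numbered 1 to 4 with 29.5 hpf in Cy5, and 0.73, 0.87, 1.05 and 1.18 on those with 46 hpf in Cy5. It was above 0 on 8 of 8 arrays, as for 1111 of the 32473 tested probes with a value on every array (3.42%). Averaged by labelled number, the 4 replicates were at 0.72, 0.72, 1.13 and 1.25, so numbers 3 and 4 lay above numbers 1 and 2 in both dye orientations. The mean was 0.95 ± 0.27 (SD, n = 4), a 1.94-fold higher signal with a 95% interval of 1.59 to 2.37. This passed the test over all probes (limma adjusted p = 0.0409), as did 206 probes in this direction (0.624%) and 175 in the other (0.53%). A higher log2 ratio than that of MSH6 was found for 0.373% of the tested probes.

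The MSH6 call depended on how arrays were joined into replicates, while its direction did not. Arrays of opposite dye correlated better with the labels' numbers 1 and 2 exchanged, and with that pairing the ratio stayed at 0.95 but the limma adjusted p was 0.0996, with 4 probes called in all, 0.0121% of those tested. With all 8 arrays and the labelled number as a block, the limma adjusted p was 0.00100 and 820 probes were called higher and 821 lower. Opposite-dye arrays of labelled numbers 1 and 2 correlated at only 0.04 and 0.05. This block may therefore miss RNA shared by other pairs of arrays, and its p may be too small and its counts too large. If RNA was shared that way, the labelled averages of numbers 1 and 2 are not independent either. The labelled fit's limma adjusted p of 0.0409 may then also be too small, and its 206 and 175 calls too many. Without each replicate in turn the ratio was between 0.86 and 1.03. With 3 replicates 0 probes of the whole array passed, so those fits do not bear on the MSH6 call.

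**Figure D2:**
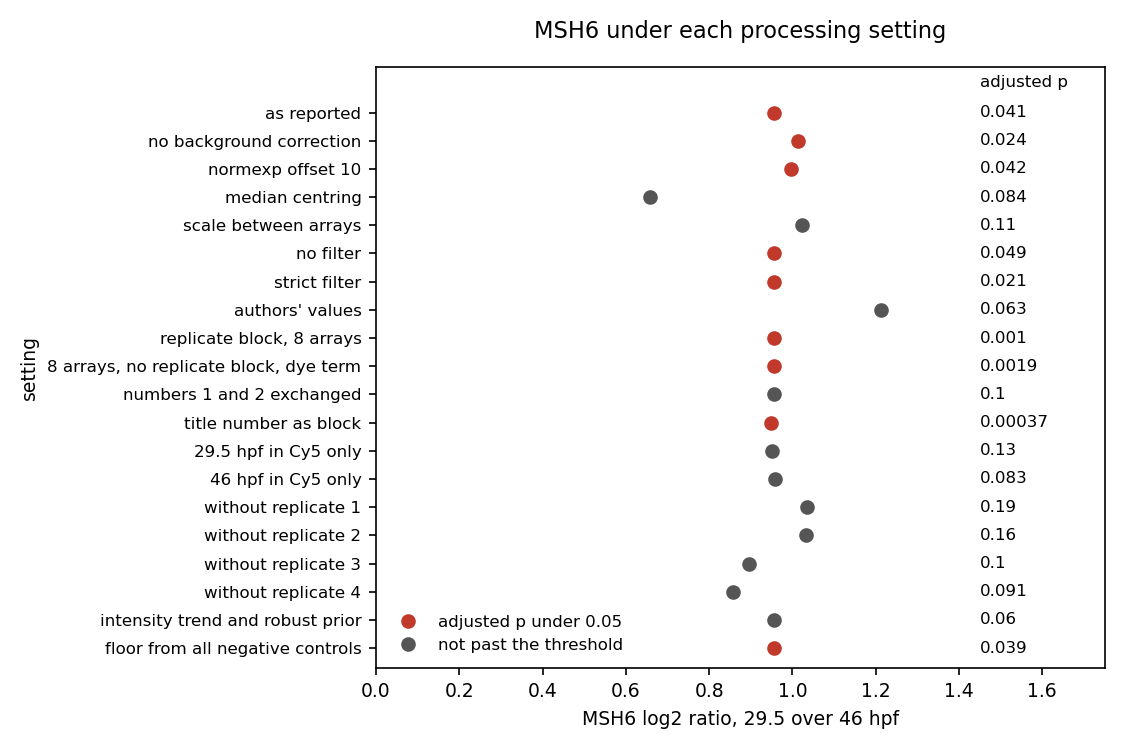
MSH6 log2 ratio of 29.5 over 46 hpf (horizontal axis) under each way of processing the arrays (rows), with the adjusted p of each at the right. All values are above 0, between 0.66 and 1.21, while the adjusted p falls on either side of 0.05.

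The MutL genes had smaller ratios, and none of their probes passed the test. PMS2, the endonuclease partner, gave at its probe EMBV3_14237 between 270 and 453 units for 29.5 hpf (median 347) and between 251 and 314 units for 46 hpf (median 281). Its uncorrected signal was higher for 29.5 hpf on 8 of 8 arrays, although the groups overlapped. The share of all probes with such a signal was not counted, and after normalization PMS2 was above 0 on 6 of 8 arrays. Its log2 ratio was -0.09, 0.23, 0.03 and -0.15 on the arrays numbered 1 to 4 with 29.5 hpf in Cy5, and 0.62, 0.15, 0.31 and 0.12 on those with the dyes exchanged. All 4 arrays with 46 hpf in Cy5 were thus above 0, whereas those with 29.5 hpf in Cy5 lay on both sides of it. The replicate mean was 0.15 ± 0.12 (SD, n = 4; limma adjusted p = 0.383), with a 95% interval from -0.03 to 0.33, and 0.01 with median centring.

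MLH3, the MutL homologue best known from meiosis, gave at its probe EMBV3_38253 between 255 and 504 units for 29.5 hpf (median 296) and between 147 and 384 units for 46 hpf (median 256). Its log2 ratio was 0.07, 0.31, 0.13 and 0.74 on the arrays numbered 1 to 4 with 29.5 hpf in Cy5, and 0.04, 0.04, -0.22 and 0.61 on those with 46 hpf in Cy5. Replicate 4 stood highest in both orientations, and the other 6 arrays lay between -0.22 and 0.31. The mean was 0.22 ± 0.32 (SD, n = 4; limma adjusted p = 0.517), with a 95% interval from -0.11 to 0.54. In the authors' deposited values it was 0.60 and did not pass (limma adjusted p = 0.274). Without replicate 4 it was 0.06 (limma adjusted p = 0.795) and with median centring 0.09. In both of these settings 0 probes of the whole array passed, so they do not bear on the MLH3 call.

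PMS1 was represented by 4 probes, of which 2 were tested. The brightest, EMBV3_17441, gave between 1453 and 2707 units for 29.5 hpf (median 1816) and between 1104 and 2079 units for 46 hpf (median 1689). Its log2 ratio was -0.12, 0.05, 0.71 and 0.80 on the arrays numbered 1 to 4 with 29.5 hpf in Cy5, and 0.37, -0.26, 0.54 and 0.49 on those with 46 hpf in Cy5. As at MSH6, the arrays numbered 3 and 4 were higher than those numbered 1 and 2 in both orientations. The mean was 0.32 ± 0.37 (SD, n = 4; limma adjusted p = 0.378), with a 95% interval from -0.05 to 0.69, and 0.004 with median centring.

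The second tested PMS1 probe, EMBV3_12961, lay close to background, between 112 and 305 units for 29.5 hpf and between 117 and 253 units for 46 hpf. It was above background on 7 arrays at 29.5 hpf and on 8 at 46 hpf. Its log2 ratio was -0.04, 0.07, -0.13 and 0.07 on the arrays numbered 1 to 4 with 29.5 hpf in Cy5, and -0.20, -0.09, -0.51 and -0.15 on those with 46 hpf in Cy5. The mean was -0.12 ± 0.14 (SD, n = 4; limma adjusted p = 0.520), with a 95% interval from -0.32 to 0.07. Set against the brightest PMS1 probe within each replicate, it differed by -0.44 ± 0.46 in log2 ratio (SD, n = 4; 95% interval -0.87 to -0.01). That difference did not pass after adjustment (limma adjusted p = 0.246 over 4736 such differences, of which 104, or 2.2%, passed). The remaining PMS1 probes, EMBV3_12258 and EMBV3_06690, were not well above background: the first exceeded it on 0 arrays at 29.5 hpf and 1 at 46 hpf, and the second on 0 at either time. No ratio is given for them.

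**Figure D3:**
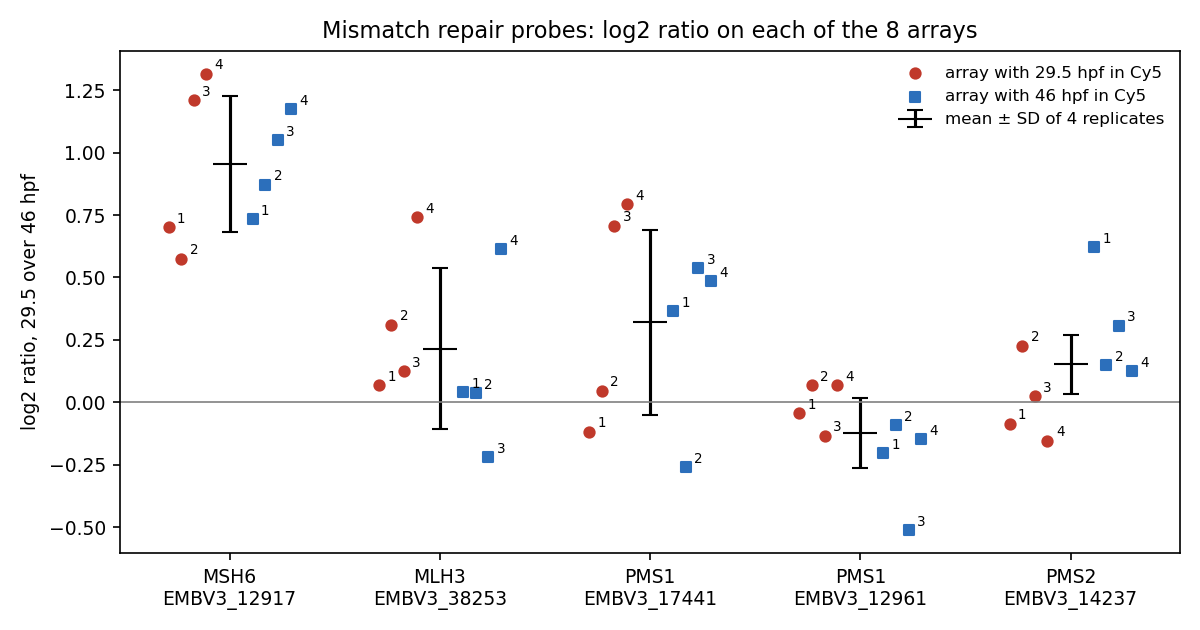
Log2 ratio of 29.5 over 46 hpf (vertical axis) on each array for the 5 tested mismatch repair probes, with circles for arrays with 29.5 hpf in Cy5, squares for those with 46 hpf in Cy5, the replicate number beside each point, and bars for the mean ± SD of the 4 replicates. The 8 MSH6 values lie between 0.58 and 1.32, while each of the other probes has arrays on both sides of 0.

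The dye orientations were compared for each tested member with a two-sided exact permutation test of 4 arrays against 4, whose smallest possible p is 0.0286. MSH6 had a mean log2 ratio of 0.95 ± 0.37 with 29.5 hpf in Cy5 and 0.96 ± 0.19 with 46 hpf in Cy5 (SD, n = 4 each; exact p = 0.971). PMS2 was at 0.00 ± 0.17 with 29.5 hpf in Cy5 and 0.30 ± 0.23 with 46 hpf in Cy5 (SD, n = 4 each; exact p = 0.0857). The PMS1 probe EMBV3_12961 was at -0.01 ± 0.10 with 29.5 hpf in Cy5 and -0.24 ± 0.19 with 46 hpf in Cy5 (SD, n = 4 each; exact p = 0.0571). Adjusted over the 5 probes, the exact p of each of these last 2 probes was 0.214. That test takes the 8 arrays as independent, although they share RNA in pairs. Within the labelled pairs the difference, 29.5 hpf in Cy5 minus 46 hpf in Cy5, was 0.16, 0.16, 0.38 and 0.22 for EMBV3_12961 and 0.03, 0.27, 0.35 and 0.13 for MLH3, of 1 sign in all 4 pairs. An exact sign-flip test over the 4 pairs, added after the data had been seen, gave p = 0.125 for both probes, the smallest it can give. PMS2 had 1 sign in 3 of the labelled pairs (exact sign-flip p = 0.25). With numbers 1 and 2 exchanged, EMBV3_12961, MLH3 and PMS2 each had 1 sign in all 4 pairs (exact sign-flip p = 0.125 each). With arrays centred on their median in place of the loess curve, MSH6 was at 0.14 with 29.5 hpf in Cy5 and 1.18 with 46 hpf in Cy5, and above 0 on 6 of 8 arrays.

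The array titles also begin with a number, 140, 141 or 142, whose meaning the labels do not state. The numbers 141 and 142 each held a single dye orientation, so number and orientation cannot be told apart there. Arrays titled 140 held only replicate numbers 1 and 2, and those titled 141 only 3 and 4. Title and replicate number cannot be told apart between those titles either. The MSH6 mean log2 ratio was 0.67 over the 3 arrays titled 140, 1.26 over the 2 titled 141 and 1.03 over the 3 titled 142. It was therefore above 0 within each title number. The brightest PMS1 probe was at 0.10, 0.75 and 0.25 and MLH3 at 0.14, 0.43 and 0.14 in that order, and PMS2 was at 0.25, -0.06 and 0.19.

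Taking each gene by its brightest probe, 1 of the 4 measured mismatch repair genes was higher at 29.5 hpf, 0 were lower and 3 did not pass, with a median log2 ratio of 0.27. Among all 12629 tested genes 113 were higher (0.895%), 73 were lower (0.578%) and the median was -0.005. Across the 8 arrays the log2 ratios of MSH6 and the brightest PMS1 probe correlated at r = 0.79, and those of MSH6 and PMS2 at r = -0.44. These are descriptions over arrays that share RNA in pairs.

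The later steps of the pathway were followed with 16 listed genes for strand excision, clamp loading, resynthesis and ligation. This list and the members were chosen with earlier results of these data known, so their counts are descriptions only. Of these 15 had a probe and 14 were tested. By the brightest probe 2 were higher at 29.5 hpf, 1 was lower and 11 did not pass, against 0.895% higher and 0.578% lower over all genes, and the median log2 ratio was 0.04. RFC1 had 0 probes under its symbol, and POLD4, a small subunit of DNA polymerase delta, was not well above background. By the brightest probe, 0 of the 14 passed limma in either direction with median centring, scaling between arrays or the authors' deposited values. Median centring and scaling called 0 probes of the whole array. PCNA probes EMBV3_16745 and EMBV3_05630, which are not its brightest, did pass in the authors' deposited values (limma adjusted p = 0.0492 each). The same count of 0 of the 14 held with numbers 1 and 2 exchanged, and unadjusted p-values under 0.05 were then found for 4093 of all tested probes, against 5404 with the labelled numbers (limma).

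RPA2, a subunit of the complex that coats the exposed single strand, was higher at 29.5 hpf. Its 4 replicates were at 1.07, 1.07, 0.70 and 1.53, with all 8 arrays above 0 and a mean log2 ratio of 1.09 ± 0.34 (SD, n = 4; limma adjusted p = 0.0422, and 0.102 with exchanged numbers). A second RPA2 probe was not well above background. The other subunits of that complex did not pass. RPA1 was below 0 on all 8 arrays at -0.31 ± 0.08 (SD, n = 4; limma adjusted p = 0.0896, against 0.197 with exchanged numbers and 0.0304 under the block). The share of all probes below 0 on all 8 arrays was not counted. RPA3 was at 0.26 ± 0.34 (SD, n = 4; limma adjusted p = 0.436).

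RFC4, a subunit of the clamp loader, was higher at 29.5 hpf, with replicates at 0.43, 0.46, 0.49 and 0.40 and all 8 arrays above 0. Its mean log2 ratio was 0.45 ± 0.04 (SD, n = 4; limma adjusted p = 0.0425, and 0.186 with exchanged numbers). Its single arrays lay between 0.15 and 0.71, and with median centring its mean was 0.13 (limma adjusted p = 0.580).

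PCNA, the sliding clamp that also binds MSH6 in human and yeast cells, was above 0 on all 8 arrays at each of its 4 probes. The brightest, EMBV3_30862, did not pass at 0.51 ± 0.26 (SD, n = 4; limma adjusted p = 0.107, against 0.189 with exchanged numbers and 0.0386 under the block). Probes EMBV3_16745 at 1.35 ± 0.32 and EMBV3_05630 at 1.07 ± 0.15 (SD, n = 4 each) passed, with limma adjusted p = 0.0335 and 0.0274. With exchanged numbers neither passed, at limma adjusted p = 0.0811 and 0.0889. Both passed in the authors' deposited values (limma adjusted p = 0.0492 each) and with an intensity trend and robust prior (0.0393 and 0.0390). Neither passed with median centring or with scaling between arrays, where 0 probes of the whole array passed. The fourth, EMBV3_42607, was at 1.30 ± 0.54 (SD, n = 4; limma adjusted p = 0.0608). EMBV3_16745 exceeded the brightest probe by 0.85 ± 0.26 in log2 ratio (SD, n = 4; limma adjusted p = 0.0315), so the size of the PCNA difference depended on the probe. With exchanged numbers that difference between probes had a limma adjusted p of 0.0775. Counting every tested probe, 4 of 24 later-step probes were higher and 1 was lower, against 0.624% and 0.53% over all probes. With exchanged numbers 0 were higher and 0 lower by limma.

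POLD3, an accessory subunit of DNA polymerase delta, was lower at 29.5 hpf at its brightest probe EMBV3_17268, with replicates at -0.45, -0.50, -0.67 and -0.66. Its mean log2 ratio was -0.57 ± 0.11 (SD, n = 4; limma adjusted p = 0.0409, and 0.102 with exchanged numbers), and -0.89 with median centring. The other POLD3 probes, at -0.29 ± 0.29 and -0.22 ± 0.31 (SD, n = 4 each), did not pass. HMGB1, a chromatin protein that aids excision in human extracts, was at -0.27 ± 0.61 (SD, n = 4; limma adjusted p = 0.657), with replicate 4 at -1.15 and the others between -0.19 and 0.16.

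The meiotic MutS homologues MSH4 and MSH5 act in crossover formation rather than in mismatch repair, and neither passed with the labelled averaging. MSH5 was above 0 on all 8 arrays, at 0.28 ± 0.19 (SD, n = 4; limma adjusted p = 0.209, and 0.332 with exchanged numbers). With title number as a block its limma adjusted p was 0.0395. That fit did not model the RNA that arrays share in pairs, so its p may be too small. MSH4 was above background on 2 arrays at 29.5 hpf and on 4 at 46 hpf, and was at -0.11 ± 0.30 (SD, n = 4; limma adjusted p = 0.730).

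**Figure D4:**
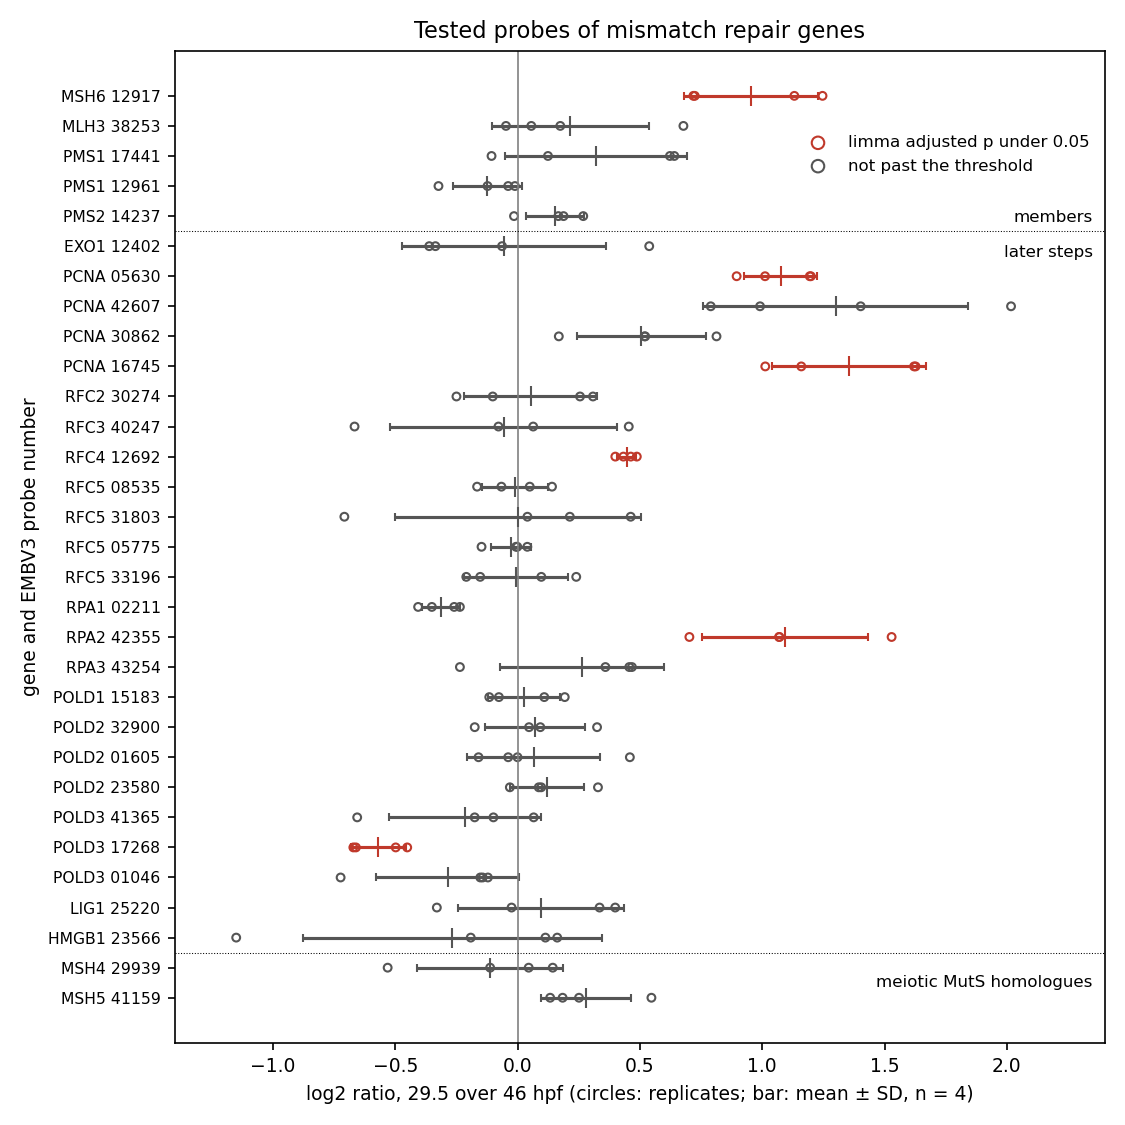
Log2 ratio of 29.5 over 46 hpf (horizontal axis) of every tested probe of the mismatch repair genes, the later-step genes and the meiotic MutS homologues (rows), with circles for the 4 replicates and a bar for their mean ± SD. The mean bars furthest to the right are those of MSH6, RPA2 and 3 of the PCNA probes, at 0.95 to 1.35, and the bar furthest to the left is that of the brightest POLD3 probe, at -0.57.

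The genes whose log2 ratios ran most like those of each member over the 8 arrays were found by Pearson's r among 11797 genes. For MSH6 they were ELP2 (r = 0.96), a subunit of the Elongator complex, FBXW11 (r = 0.96), an F-box protein, and DDX55 (r = 0.96), an RNA helicase. ELP2 was itself higher at 29.5 hpf (log2 ratio 1.08, limma adjusted p = 0.0449), whereas FBXW11 at -0.27 and DDX55 at 0.22 did not pass, so a like course over arrays came with unlike mean ratios. Genes with r over 0.9 numbered 24 for MSH6, 27 for PMS1, 36 for PMS2 and 123 for MLH3. The closest were HEATR5A, AP5M1 and LNPK for PMS1, WDR70, HAUS4 and ZBTB32 for PMS2, and TBC1D24, NTN4 and IL10RB for MLH3, with r between 0.95 and 0.98. The arrays share RNA in pairs, and several of these correlations depended on the normalization. In the authors' deposited values the r of MSH6 was 0.53 with ELP2, 0.34 with FBXW11 and 0.51 with DDX55. With scaling between arrays it was 0.99 with ELP2, 0.038 with FBXW11 and 0.45 with DDX55. The r of MLH3 with NTN4 was 0.32 with median centring, and that of PMS2 with ZBTB32 was 0.37 in the authors' deposited values. The 3 genes closest to PMS1 stayed between 0.85 and 0.997 under the 5 other normalizations and background settings.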

How the data were processed

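Bovine 2-cell embryos collected at 29.5 and 46 hpf were compared on 8 two-colour arrays, and the 7 probes of the mismatch repair genes were read from fits over all probes. The deposited scanner files hold intensity on a linear scale, not normalized. They are, per the file headers, the mean brightness of each spot and the median of its local background at 532 nm (Cy3) and 635 nm (Cy5). RNA was amplified by T7 transcription and coupled to the dyes, per the labels' protocols. The series' value table holds log2 ratios deposited by the authors, and the sources used here do not give their normalization. Compared with the scanner's ratios, its columns had slopes of 1.08 to 1.21 with 29.5 hpf in Cy5 and -1.17 to -1.04 with 46 hpf in Cy5, so they already ran as 29.5 over 46 hpf. Their medians were -0.0151 to 0.0120, and they served as an alternative only.

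From the scanner values, background was corrected by normexp (offset 50) and log2 ratios were normalized by loess within each array (limma 3.58.1, R 4.3.3), with 1418 control spots and the 28 to 186 ignored spots per array at weight 0. Signs were turned to 29.5 over 46 hpf, and dye-swapped arrays of 1 labelled number were averaged. The 4 replicate means were tested against 0 with limma (lmFit, then eBayes; two-sided), and p-values were adjusted by Benjamini and Hochberg's method over 32989 probes, with calls at 0.05. Tested probes had a value in at least 3 replicates and passed the floor. Ignored spots were left out of the floor after its values had been seen, and the floor with them was kept as an alternative. A gene was represented by its brightest tested probe. The fit was checked on simulated independent replicates, so that check does not bear on RNA shared between replicates.

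Symbols came from the platform annotation (21781 probes with 1, 0 with several, 22013 with none) and were updated through RefSeq's ARS-UCD2.0 table: 20016 were current, 1524 were renamed and 241 were kept as given. No coordinates are printed, since the sources used here name no build for the probes. Named genes were every probe of the members, the listed later-step and meiotic genes past the threshold with up to 6 others of smallest p, and the 3 genes most correlated with each member. The members and lists were chosen with earlier results of these data known.

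The design text calls the replicates biological, and p-values measure the spread between them, while the number of arrays limits the precision. Ratios of opposite-dye arrays correlated at 0.04 and 0.05 for labelled numbers 1 and 2, at 0.62 and 0.72 for numbers 3 and 4, and at 0.67 and 0.52 with numbers 1 and 2 exchanged. After subtracting the mean over arrays, the correlations were -0.28, -0.19, 0.29 and 0.50 for labelled numbers 1 to 4. The labelled pairing was kept, with the exchanged pairing as an alternative. If the exchanged pairing is the right one, the labelled averages of numbers 1 and 2 are not independent. Other alternatives covered background, normalization, filter, blocks, dye orientation, variance model and left-out replicates, and, added after the data had been seen, pairing of the dye comparison.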

Additional observations from a re-analysis of the deposited data

Results flagged for a closer look

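Among 48 groups of 4 values examined for the named probes, 2 held a value far from the others by Dixon's test of the gap over the range, where chance gives about 1 in 20. For RPA3 the gap was 0.846 of the range: replicate 3 had a log2 ratio of -0.24, while replicates 1, 2 and 4 were at 0.46, 0.47 and 0.36. These are averages by labelled number. Single RPA3 arrays lay between -0.47 and 1.21, with 4 of 8 above 0. For HMGB1 on the arrays with 46 hpf in Cy5 the gap was 0.931 of the range, with the array numbered 4 the lowest. The cause was not tested for either gene.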

How the results depend on the processing

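MSH6 stayed above 0 in all 22 alternatives that gave it a value, but it passed in only 8 of the 19 with a test. Each passing setting either kept the labelled averaging or entered the 8 arrays without averaging. The latter were the replicate block, the dye term and the title block. The dye term and title block fits did not model the RNA that arrays share in pairs, so their p may be too small. It missed the threshold with median centring (0.66, limma adjusted p = 0.0835), scaling between arrays (1.02, 0.109), the authors' deposited values (1.21, 0.0626), exchanged numbers (0.95, 0.0996), and an intensity trend with a robust prior (0.95, 0.0597). It also missed it with 29.5 hpf in Cy5 alone (0.95, 0.126), 46 hpf in Cy5 alone (0.96, 0.0829) and without each replicate (0.86 to 1.03). In these last settings, as with median centring and scaling, 0 probes of the array passed. Median centring also moved the median of all genes to -0.10, and MSH6 lay 0.76 above it. With the replicate block (random, by duplicateCorrelation) the limma adjusted p was 0.00100, and the block changed no other member's call. The limit given above for that block, from the poorly correlated labelled pairs, applies here too.

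Within title numbers MSH6 was at 0.67 (140) and 1.26 (141), the brightest PMS1 probe at 0.75 (141) and PMS2 at -0.064 (141). Directions turned for RPA3 with median centring (-0.042), for MSH4 with 29.5 hpf in Cy5 alone (0.0038), and, without single replicates, for HMGB1 (-0.41 to 0.028, above 0 without replicate 4) and MSH4 (-0.20 to 0.025, likewise). The difference between dye orientations turned for MSH6 without background correction (0.049), with scaling (0.26) and in the authors' deposited values (0.45), for MLH3 (-0.34) and the brightest PMS1 probe (-1.004) with median centring, and for PMS1 EMBV3_12961 in the authors' deposited values (-0.19). It reached the smallest exact permutation p of 0.0286 with median centring for MSH6 (-1.04) and PMS2 (-0.83) and passed for EMBV3_12961 without background correction (0.42).

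Probes called higher and lower numbered 345 and 271 without background correction, 458 and 405 with the strict filter, 38 and 13 in the authors' deposited values, 820 and 821 with the replicate block, 937 and 943 with 8 arrays, a dye term and no block, 1399 and 1497 with title number as a block, 4 and 0 with exchanged numbers, and 28 and 11 with the intensity trend. The dye term and title block fits did not model the RNA that arrays share in pairs, so their counts may be too large. With an offset of 10, 115 were lower. By limma, 0 and 0 were called with median centring, scaling, either orientation alone and without each replicate (0 to 0), against 5404 probes at an unadjusted p under 0.05 in the labelled fit. Counting every later-step probe, 4 probes were called higher. By the brightest probe, later-step genes called higher numbered 1 with an offset of 10 or no filter. They numbered 0 with median centring, scaling, the authors' deposited values and exchanged numbers. The count was also 0 with either orientation alone, the intensity trend and without each replicate (0 to 0). Those called lower numbered 0 in these same settings and with an offset of 10 (no filter and every probe left 1), and 2 with the replicate block, the dye term or the title block. The causes were not tested. Signal near background limits EMBV3_12961.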
